A study of Mus musculus with 8 samples.

Results

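Thrombospondins and the SPARC family are matricellular genes: their proteins are secreted into the extracellular matrix, where they act on cells rather than build the scaffold. The 10 genes described here, Thbs1, Thbs2, Thbs3, Thbs4, Sparc, Sparcl1, Smoc1, Smoc2, Spock1 and Spock2, were taken by gene symbol from the 24883 rows of the deposited expression table, and each had 1 row. RNA was sequenced from visual cortex of C57BL/6J mice that had received an intracortical injection on postnatal day 122 and were sampled on postnatal day 129, 7 days later. The injected agent was a locked nucleic acid (LNA) oligonucleotide, a short synthetic strand that can bind and block a microRNA. In 4 samples its sequence was scrambled and in 4 it was complementary to miR-29a. All 8 samples used here were therefore injected with an LNA, and the comparison is between the 2 oligonucleotides, with no uninjected group. Whether each sample is its own animal is not stated in the labels. The p-values thus rest on how far these samples vary, and some of that variation may be technical.

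Astrocytes secrete thrombospondins, which promote the formation of excitatory synapses through the neuronal receptor Cacna2d1, a calcium channel subunit. Sparcl1 encodes hevin, an astrocyte protein that bridges neurexin and neuroligin across the synapse, and Sparc encodes a related protein that counteracts the synapse-forming action of hevin. The Smoc genes encode calcium-binding relatives of Sparc found in basement membranes, and the Spock genes encode testicans, proteoglycans of the brain matrix. MicroRNAs of the miR-29 family are known for repressing many matrix genes, and Sparc has been described elsewhere as a miR-29 target.

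The sequence of miR-29a is shown first because pairing with its seed is the way a block of this microRNA could act directly on a transcript. A microRNA recognises its targets mainly through bases 2 to 8, printed here in capitals. The mature sequences are from RefSeq (GRCm38.p6), and the 3 family members have the same seed.
miR-29a-3p: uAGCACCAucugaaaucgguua
miR-29b-3p: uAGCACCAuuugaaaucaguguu
miR-29c-3p: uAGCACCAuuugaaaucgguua

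The complement of bases 2 to 8, TGGTGCT, was searched on the sense strand of the longest protein-coding 3' UTR of each gene in GENCODE M21 (mm10). Of the 10 genes 0 held it, compared with 15.8% of 13113 tested genes that have such a UTR. The 3' UTRs searched ran from 161 nt in Thbs4 to 3717 nt in Spock2. A weaker kind of match, to bases 2 to 7 followed by an A (GGTGCTA), was searched after the first search had given none. It was present in 7.95% of searched genes and in 1 of the 10, Sparc, which held 2 copies. Of searched genes 0.785% held 2 or more copies of GGTGCTA. Either 7-base string was present in 1 of the 10 and in 19.3% of searched genes. A match to bases 2 to 7 alone (GGTGCT), a shorter string that the other definitions contain, was present in Sparc, Spock1 and Spock2 and in 34.2% of searched genes. Fstl1, a further relative of Sparc that is not among the 10, held 1 copy of GGTGCTA in 2588 nt.

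The Sparc matches lie in its 3' UTR of 1085 nt on the minus strand of chromosome 11, and the Fstl1 match on the plus strand of chromosome 16. They are shown because they are the longest seed matches found in the families. Capitals mark the matched bases, and each line is the transcript strand, 5' to 3', in mm10.
Sparc, chr11:55395469-55395475: ggggataaGGTGCTAacatagat
Sparc, chr11:55395436-55395442: acattaacGGTGCTAaaaaaaaa
Fstl1, chr16:37834572-37834578: taaccaaaGGTGCTAtttctctg

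Levels are given in FPKM, fragments scaled to transcript length and library size, so genes can be compared with each other. The deposited table holds no counts or total depths. The spacing of low values put the other libraries at an estimated 0.983 to 1.17 of the depth of scrambled replicate 1. Of the ratios behind each estimate, 26.82% to 35.95% lay within its tolerance of 0.02 log2 units. Each library listed 12538 to 12769 rows at 1 FPKM or more. Pearson correlations of log2 values across tested genes ranged from 0.932 to 0.963 for libraries of 1 group and from 0.931 to 0.957 across groups. Markers of the tissue were present in every library: 6 cortical excitatory neuron genes summed to 1484 to 1547 FPKM in scrambled and 1422 to 1535 FPKM in anti-miR-29a libraries.

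The 10 genes covered a wide range of levels in adult visual cortex. Sparcl1 was the highest, with a mean of 506.3 FPKM over the 8 libraries and a range of 442.9 to 530.0. Spock2 followed at 151.1 FPKM, Spock1 at 89.3 and Sparc at 64.1. Sparcl1 lay above Spock2, and Spock2 above Spock1, with no overlap of their ranges, while the ranges of Spock1 and Sparc overlapped. The other 6 genes were far lower. Sparc did not overlap Smoc2, the next gene down, at 4.10 FPKM. Smoc2, Thbs4, Smoc1, Thbs3 and Thbs2, at 4.10, 3.84, 3.25, 2.26 and 1.91 FPKM, overlapped each with its neighbour. Thbs1 was the lowest at 0.320 FPKM and stood below Thbs2 in 8 of 8 libraries. Per length of transcript, the genes of hevin and of both testicans each lay above every thrombospondin gene in 8 of 8 libraries.

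**Figure D1:**
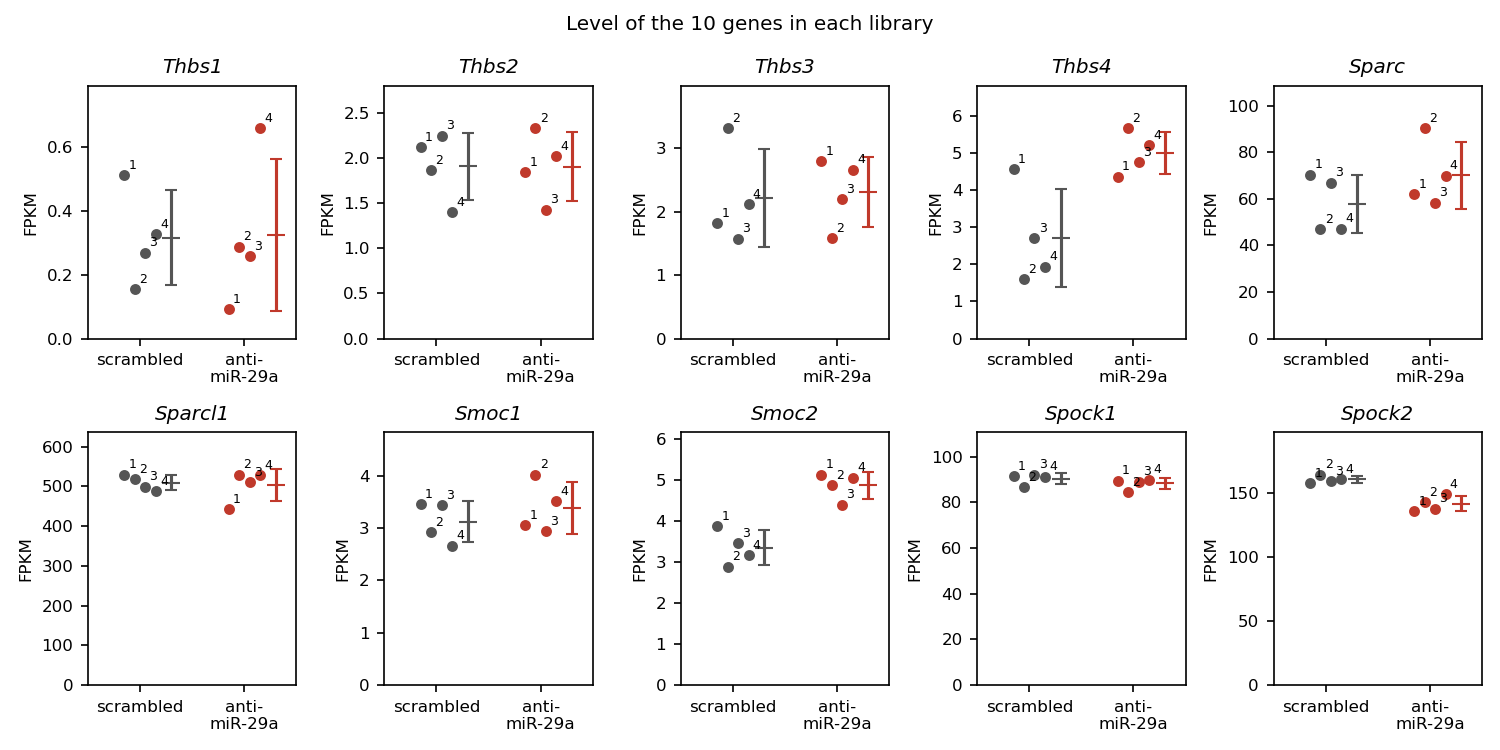
FPKM of each of the 10 genes in the 4 scrambled (grey) and 4 anti-miR-29a (red) libraries, with replicate numbers beside the points. Bars to the right show the mean and SD (n = 4), and every axis starts at 0. The groups separate without overlap in Smoc2 and Spock2 and overlap in the other 8 genes.

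The 2 groups of libraries were compared to ask how these genes respond to the block of miR-29a. Differences are on the log2(FPKM + 0.1) scale, which understates the change of low genes, and were tested with limma over all 13912 rows with a mean of at least 0.5 FPKM. Thbs1 missed that level, which left 9 of the 10 genes. None of the 9 passed an adjusted p of 0.05, a call that 0.0144% of all tested rows received. At an unadjusted p under 0.05 stood 3 of the 9, Smoc2, Spock2 and Thbs4, beside 10.7% of all rows. The groups did not overlap in 1 gene that was higher in anti-miR-29a libraries, Smoc2, and in 1 that was lower, Spock2. Over all rows the groups lay apart in 4.02% with anti-miR-29a higher and in 2.29% with it lower. The difference was positive in 5 of the 9 genes and negative in 4, with a median of 0.086, against 0.026 and 56.6% positive over all rows. The median was within 0.010 to 0.12 with 1 library left out. It was 0.052 without scrambled replicate 1, 0.039 without scrambled replicate 4, 0.040, 0.026 and 0.010 without anti-miR-29a replicates 1, 2 and 4, and -0.027 over the 4 genes that average 5 FPKM or more. The differences of the 9 genes thus went both ways, and their median moved with single libraries.

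**Figure D2:**
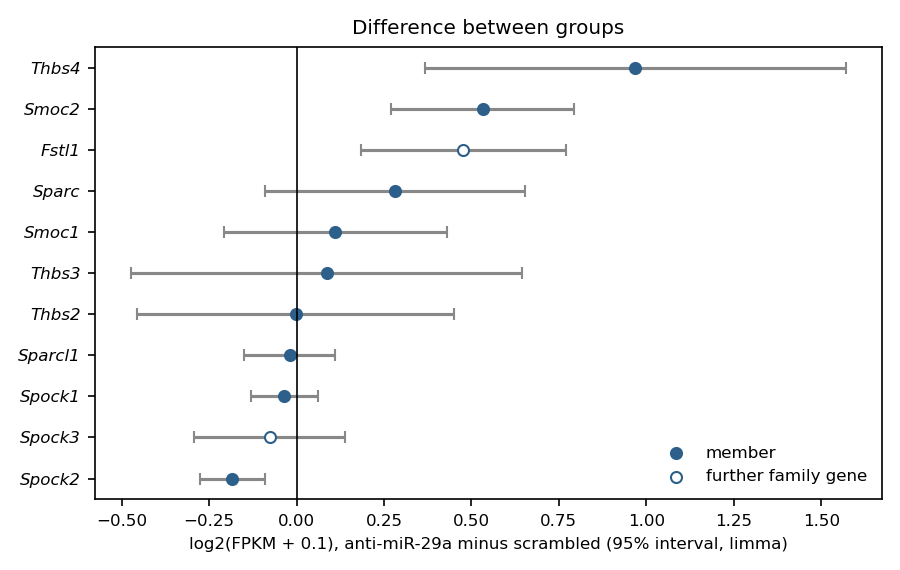
Difference of mean log2(FPKM + 0.1), anti-miR-29a minus scrambled, with its 95% interval from limma (n = 4 per group), for the 9 tested genes (filled) and 2 further relatives (open). The intervals of Thbs4, Smoc2 and Fstl1 lie above 0 and that of Spock2 below 0 before adjustment, and none of the genes passed after adjustment over all rows.

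Among the thrombospondins, Thbs4 had the largest difference of the 10 genes but varied widely in controls. Thbs4, on chromosome 13 at 92751590 to 92794818 (mm10), encodes a thrombospondin of astrocytes, muscle and tendon. Its values were 4.55, 1.60, 2.69 and 1.93 FPKM in scrambled libraries and 4.36, 5.66, 4.75 and 5.20 FPKM in the anti-miR-29a libraries. The anti-miR-29a libraries were all high and close together, and 1 control, scrambled replicate 1, reached their level and lay above anti-miR-29a replicate 1. The means were 2.70 ± 1.32 and 4.99 ± 0.565 FPKM (SD, n = 4 each), a ratio of 1.85. Thbs4 differed by 0.97 on the log2 scale, with a standard error of 0.27 and a 95% interval of 0.37 to 1.57 (limma, adjusted p = 0.264; exact two-sided permutation p = 0.0571). Without scrambled replicate 1 the difference was 1.25 (limma, adjusted p = 0.183), and without scrambled replicate 2 it was 0.77. It ranked 261 by p among the 13912 rows.

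The other thrombospondins showed no separation between the groups. Thbs1, known from platelets and from activated astrocytes as an activator of latent TGF-beta, lay near the floor. It read 0.511, 0.154, 0.269 and 0.326 FPKM in scrambled and 0.0922, 0.287, 0.259 and 0.658 FPKM in anti-miR-29a libraries. Its lowest and highest values of all 8 libraries were both in anti-miR-29a libraries (exact permutation p = 0.857, n = 4 each). Of 10 macrophage and platelet markers 3 reached the filter, and the 10 summed to 9.82 to 12.5 FPKM in scrambled and 9.52 to 14.8 FPKM in anti-miR-29a libraries. Gp1bb alone averaged 8.82 FPKM in scrambled and 8.19 FPKM in anti-miR-29a libraries, so the sums largely reflect this 1 marker. The platelet markers Ppbp and Gp9 missed the filter, so the sums are not read as an amount of platelets or macrophages. The groups overlapped in Pf4, a platelet and macrophage gene, but not in Ms4a7, a macrophage gene. Ms4a7 read 0.219, 0, 0 and 0.168 FPKM in scrambled and 1.11, 1.51, 0.666 and 0.601 FPKM in anti-miR-29a libraries, near the floor of the table (limma, adjusted p = 0.201). Cd163, Ms4a7, Pf4, Ppbp and Gp9 were listed at 0 in some libraries, none of the 10 in all, and the part of these cells in the values of Thbs1 was not tested. Thbs2, which encodes the closest relative of that protein, read 2.12, 1.86, 2.25 and 1.40 FPKM and then 1.84, 2.33, 1.43 and 2.02 FPKM in the same order. Its means were 1.91 ± 0.372 and 1.90 ± 0.377 FPKM. The 95% interval of the log2 difference ran from -0.46 to 0.45, so changes within that span in either direction were not excluded. In both genes the groups overlapped, and the anti-miR-29a values of Thbs1 were the more widely spread.

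Thbs3 encodes a thrombospondin built, like that of Thbs4, from more subunits than the thrombospondins of Thbs1 and Thbs2. It read 1.82, 3.32, 1.58 and 2.12 FPKM in scrambled and 2.80, 1.59, 2.20 and 2.67 FPKM in anti-miR-29a libraries. Scrambled replicate 2 held its highest value, the library in which Thbs4 and Thbs1 were each at their lowest among controls. Its log2 difference of 0.086 had a 95% interval of -0.47 to 0.65. Of 4823 exon bases annotated to Thbs3, 318 are shared with Mtx1 on the opposite strand, and the libraries do not mark strand, so part of its reads could be of Mtx1, which averaged 14.5 FPKM. Likewise 208 of the 6073 exon bases of Thbs1 overlap a lincRNA on the opposite strand, and exons of the other 8 genes overlap no other annotated gene.

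Sparc and Sparcl1, the antagonist and the agonist of synapse formation, were both abundant and neither passed. Sparcl1 read 530.0, 519.1, 499.4 and 488.8 FPKM in scrambled and 442.9, 529.7, 511.7 and 528.8 FPKM in anti-miR-29a libraries. Apart from anti-miR-29a replicate 1, which was the lowest of the 8, the libraries lay between 488.8 and 530.0 FPKM. For Sparcl1 the log2 difference was -0.020, with a 95% interval of -0.15 to 0.11 (limma, adjusted p = 0.925), narrower than that of any tested thrombospondin. Under quantile normalization the difference was -0.12 (limma, adjusted p = 0.5455), so the interval does not cover the choice of scaling.

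Sparc, the only one of the 10 with a 7-base miR-29 match, varied within each group by more than the groups differed. It read 70.4, 47.1, 67.0 and 47.2 FPKM in scrambled and 61.9, 90.4, 58.3 and 70.001 FPKM in anti-miR-29a libraries. Scrambled replicates 1 and 3 lay among the anti-miR-29a libraries, scrambled replicates 2 and 4 lay lower, and anti-miR-29a replicate 2 was the highest. The means were 57.9 ± 12.5 and 70.2 ± 14.4 FPKM (SD, n = 4 each), a ratio of 1.21. The log2 difference was 0.28 with a standard error of 0.17 and a 95% interval of -0.092 to 0.65 (limma, adjusted p = 0.583; exact permutation p = 0.257). The 4 anti-miR-29a values were each above the scrambled mean. Without anti-miR-29a replicate 2 the log2 difference was 0.15.

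Reactive astrocyte markers, which rise in astrocytes after injury, varied in the same libraries as Sparc. Against the scrambled mean, the median of 9 tested markers stood at 0.58 and 0.39 in scrambled replicates 1 and 3, where Sparc stood at 0.31 and 0.23. In scrambled replicates 2 and 4 the marker median was -0.52 and -0.51, and Sparc stood at -0.27 and -0.27. In anti-miR-29a replicates 1 to 4 the marker median was 0.077, 1.05, 0.23 and 0.36, and Sparc stood at 0.12, 0.67, 0.035 and 0.30. The library with the highest marker median was thus also the highest in Sparc. This was not particular to these markers. The medians of fibroblast, astrocyte and oligodendrocyte precursor markers were also highest in anti-miR-29a replicate 2, at 0.79, 0.21 and 0.22. Endothelial and microglia medians were instead highest in scrambled replicate 1, at 0.31 and 0.40. Between the groups, microglia markers had a median difference of -0.027, with 5 of 10 tested genes higher in anti-miR-29a libraries. Of the 9 reactive astrocyte markers 8 were higher in anti-miR-29a libraries, beside 56.6% of all rows, with a median of 0.47. Of these 9 markers 0 passed adjustment, and Cd44 and Gfap had the smallest p. The 10 listed reactive astrocyte genes summed to 154.9 to 351.4 FPKM in scrambled and 234.0 to 529.6 FPKM in anti-miR-29a libraries. Most of this was Gfap, at means of 168.9 and 274.8 FPKM. None of the 10 genes was listed at 0 in any library. Their part in the values of Sparc and Thbs4 was not tested. In bulk tissue, more cells of a type and more RNA per cell cannot be told apart.

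**Figure D3:**
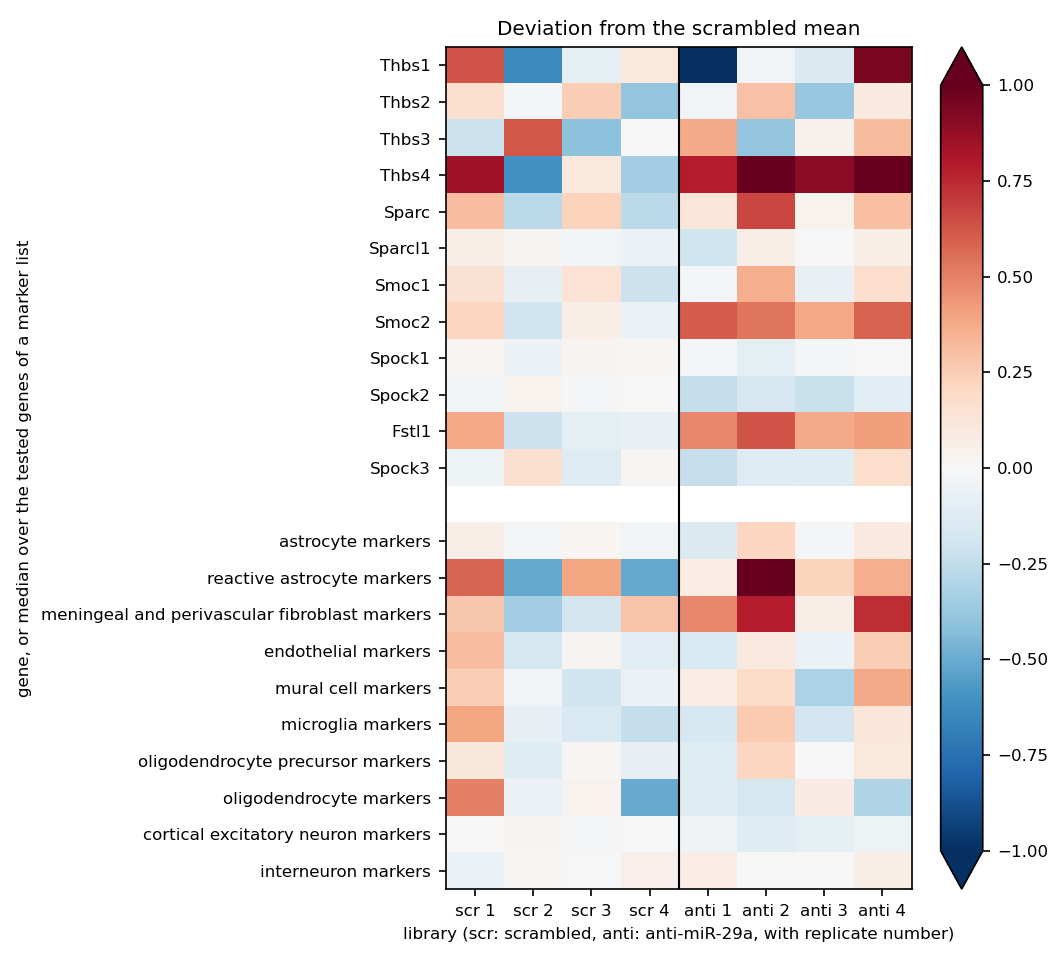
Deviation of log2(FPKM + 0.1) from the scrambled mean in each library (columns) for the 10 genes and 2 relatives (upper rows) and for the median over the tested genes of 10 marker lists (lower rows); colours are capped at -1 and 1. Thbs4, Smoc2 and Fstl1 are high and Spock2 low in all 4 anti-miR-29a libraries. Sparc is highest in the library where reactive astrocyte, fibroblast, astrocyte and oligodendrocyte precursor markers are highest.

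Of the SMOC genes, Smoc2 separated the groups of libraries and Smoc1 did not. Smoc2, on chromosome 17 at 14279506 to 14404790 (mm10), encodes a matrix protein that takes part in growth factor signalling and angiogenesis. It read 3.87, 2.88, 3.46 and 3.17 FPKM in scrambled and 5.13, 4.88, 4.39 and 5.05 FPKM in anti-miR-29a libraries. Every anti-miR-29a value was higher than every scrambled value. The means were 3.35 ± 0.422 and 4.86 ± 0.330 FPKM (SD, n = 4 each), a ratio of 1.45. Smoc2 differed by 0.53 on the log2 scale, with a standard error of 0.12 and a 95% interval of 0.27 to 0.79, the smallest p of the 10 genes and rank 78 of all rows. After adjustment over all rows Smoc2 did not pass (limma, adjusted p = 0.202). Its exact permutation p was 0.0286, which is the floor of this test with 70 relabellings. Over 18 alternative fits its difference ran from 0.43 to 0.60, and its adjusted p from 0.151 to 0.427.

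Smoc1, which encodes its closest relative, read 3.46, 2.92, 3.44 and 2.66 FPKM in scrambled and 3.06, 4.02, 2.94 and 3.52 FPKM in anti-miR-29a libraries. The groups overlapped, and the log2 difference of 0.11 had a 95% interval of -0.21 to 0.43 (limma, adjusted p = 0.815). The ratio of Smoc2 to Smoc1 within a library, which does not depend on a scale factor between libraries, was 0.985 to 1.19 in scrambled and 1.21 to 1.68 in anti-miR-29a libraries. It was higher by 0.42 on the log2 scale (exact permutation p = 0.0286; adjusted p = 0.0571 over the 4 ratios computed). The pairs for these ratios were chosen after the values had been seen.

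Markers of meningeal and perivascular fibroblasts, cells that make matrix, are given beside Smoc2 and Thbs4. Of 11 tested fibroblast markers 10 were higher in anti-miR-29a libraries, beside 56.6% of all rows, with a median of 0.48, and 0 passed adjustment. Ptgds and Igf2, at 0.61 and 0.75 log2 units, were among the 5 at an unadjusted p under 0.05. Over all rows that share was 10.7% in either direction. The 12 listed genes summed to 339.0 to 526.1 FPKM in scrambled and 490.5 to 752.2 FPKM in anti-miR-29a libraries, and Lum alone was listed at 0 in some libraries. The summed ranges overlapped. Most of each sum was Ptgds, at 398.6 ± 82.1 FPKM in scrambled and 607.1 ± 110 FPKM in anti-miR-29a libraries (SD), so the sums largely follow this 1 gene. Against the scrambled mean, the fibroblast median stood at 0.27, -0.35, -0.18 and 0.29 in scrambled replicates 1 to 4 and at 0.48, 0.79, 0.070 and 0.74 in anti-miR-29a replicates 1 to 4. In the same order Smoc2 stood at 0.21, -0.20, 0.056 and -0.067, then at 0.61, 0.54, 0.39 and 0.59. Thbs4 stood at 0.84, -0.60, 0.11 and -0.35, then at 0.78, 1.15, 0.91 and 1.03. The part of these cells in the values of Smoc2 and Thbs4 was not tested. Endothelial and mural markers had medians of 0.026 and 0.12, with 5 and 7 of 10 tested genes higher. The endothelial markers summed to 92.8 to 126.7 FPKM in scrambled and 109.1 to 124.2 in anti-miR-29a libraries, and the mural markers to 60.8 to 73.7 and 56.2 to 85.1.

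Of the testicans, Spock2 was lower in anti-miR-29a libraries and Spock1 was nearly level. Spock2, on chromosome 10 at 60106219 to 60135198 (mm10), encodes testican-2, a proteoglycan made by neurons and astrocytes. It read 158.0, 164.5, 159.3 and 161.1 FPKM in scrambled and 136.1, 142.9, 138.0 and 149.3 FPKM in anti-miR-29a libraries. Every anti-miR-29a value was lower than every scrambled value, and the scrambled values stayed within a narrow span. The means were 160.7 ± 2.84 and 141.6 ± 5.90 FPKM (SD, n = 4 each), a ratio of 0.881. Spock2 differed by -0.18 on the log2 scale, with a standard error of 0.041 and a 95% interval of -0.28 to -0.091, rank 82 of all rows by p. Spock2 did not pass either (limma, adjusted p = 0.211), with an exact permutation p of 0.0286. Over 19 alternative fits the difference ran from -0.23 to -0.17, with adjusted p from 0.156 to 0.409.

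Spock1, which encodes testican-1 and is expressed mainly by neurons, read 91.4, 86.7, 92.1 and 91.3 FPKM in scrambled and 89.5, 84.5, 89.1 and 90.0 FPKM in anti-miR-29a libraries. The groups overlapped, and replicate 2 was the lowest of each group. The log2 difference of -0.035 had a 95% interval of -0.13 to 0.060 (limma, adjusted p = 0.805). The ratio of Spock2 to Spock1 within a library was 1.73 to 1.90 in scrambled and 1.52 to 1.69 in anti-miR-29a libraries, lower by 0.15 on the log2 scale (log2 difference -0.15; exact permutation p = 0.0286; adjusted p = 0.0571 over the 4 ratios). The ratios of Sparc to Sparcl1 and of Thbs4 to Thbs3 overlapped between groups (exact permutation p = 0.2 for each).

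Neuron and glia markers are given beside Spock2 because these cells express it. Of 6 excitatory neuron markers 2 were higher and 4 lower, with a median of -0.042, and Neurod6, at -0.25 log2 units, was the 1 whose groups did not overlap. The marker median stood at -0.032, -0.12, -0.099 and -0.049 in anti-miR-29a replicates 1 to 4, where Spock2 stood at -0.24, -0.17, -0.22 and -0.11 against its scrambled mean. Interneuron markers had a median of 0.069, with 4 of 6 higher, and summed to 675.0 to 726.0 FPKM in scrambled and 704.1 to 795.3 FPKM in anti-miR-29a libraries. The groups did not overlap in Pvalb, which was higher by 0.13 log2 units, and in Gad1, at -0.073. Such separation was seen in 4.02% of all rows with anti-miR-29a higher and in 2.29% with it lower. Astrocyte markers had a median of 0.014, with 5 of 10 higher, and summed to 795.1 to 829.1 and 738.4 to 890.2 FPKM. The 8 oligodendrocyte markers were all lower, with a median of -0.15, and 0 passed, while 56.6% of all rows were higher. These markers summed to 850.0 to 1738 and 951.2 to 1259 FPKM. None of the excitatory neuron, interneuron, astrocyte or oligodendrocyte markers was listed at 0 in any library, and their part in the values of Spock2 was not tested.

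**Figure D4:**
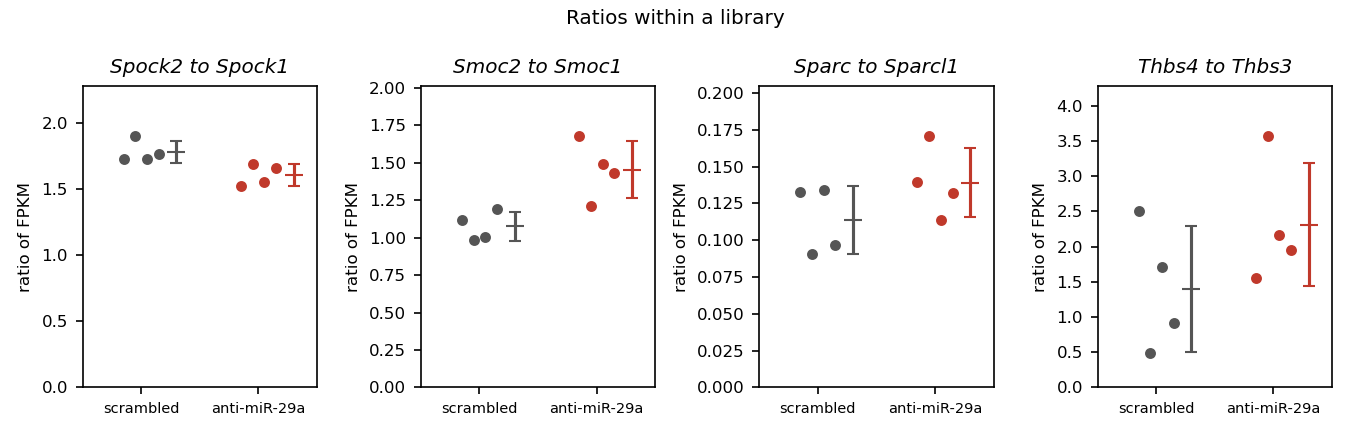
Ratio of the FPKM of 2 related genes within each library (points; grey scrambled, red anti-miR-29a), with the mean and SD to the right (n = 4 each). Spock2 to Spock1 and Smoc2 to Smoc1 separate the groups, whereas Sparc to Sparcl1 and Thbs4 to Thbs3 overlap.

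Further relatives outside the 10 genes were Comp, Spock3 and Fstl1. Fstl1 encodes a secreted glycoprotein with a SPARC-like domain. It read 7.36, 4.83, 5.24 and 5.31 FPKM in scrambled and 7.87, 8.71, 7.33 and 7.55 FPKM in anti-miR-29a libraries. As for Thbs4, scrambled replicate 1 reached the anti-miR-29a level, here above replicate 3 of that group, and the other 3 controls were lower. The log2 difference was 0.48, standard error 0.13 (limma, adjusted p = 0.264; exact permutation p = 0.0571). Spock3, the third testican gene, had a log2 difference of -0.077 with a 95% interval of -0.29 to 0.14. Comp, the fifth thrombospondin gene, was below the filter at 0.128 ± 0.106 and 0.170 ± 0.0965 FPKM, and was listed at 0 in scrambled replicate 2.

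Receptors and partners of these proteins did not pass either. Of 18 listed genes 16 were tested, 0 passed, and 2 higher and 2 lower had an unadjusted p under 0.05, beside 10.7% of all rows. The difference was positive in 6 and negative in 10, with a median of -0.071. Cacna2d1, the receptor through which thrombospondins promote synapse formation, read 21.4 ± 2.44 and 17.7 ± 1.92 FPKM (SD, n = 4 each), a log2 difference of -0.27 (limma, adjusted p = 0.383). Itgb1, the integrin subunit shared by several matrix receptors, read 9.08 ± 1.26 and 11.6 ± 1.33 FPKM, a log2 difference of 0.35 (limma, adjusted p = 0.337). Calr, encoding calreticulin, through which Thbs1 protein binds cells, read 165.3 ± 11.98 and 187.8 ± 16.1 FPKM. The groups overlapped in these 3 genes. Of the 16 tested they did not overlap in 1, Lrp8, a reelin receptor gene, which read 10.5 ± 0.647 and 9.27 ± 0.307 FPKM (limma, adjusted p = 0.443). That count stands beside 4.02% of all rows with anti-miR-29a higher and 2.29% with it lower.

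Other secreted regulators of synapse formation gave 9 positive and 8 negative differences among 17 tested genes, with a median of 0.015 and 0 called. C1ql1, which encodes a secreted ligand that organises synapses, read 5.04 ± 0.750 and 7.66 ± 1.07 FPKM, a log2 difference of 0.59 (limma, adjusted p = 0.201). Apoe, encoding the main lipid carrier of astrocytes, was higher by 0.42 on the log2 scale and by 0.39 under median centring. Under quantile normalization its log2 difference was -0.057, so its direction turned with that scaling. Nptx1, a neuronal pentraxin gene that clusters glutamate receptors, read 76.8 ± 5.13 and 65.2 ± 3.95 FPKM, a log2 difference of -0.24 (limma, adjusted p = 0.246). Before quantile normalization the groups did not overlap in 4 of the 17 genes, C1ql1 and Apoe with anti-miR-29a higher and Nptx1 and Nptxr with it lower, beside the 4.02% and 2.29% of all rows. Nptxr, which encodes a receptor of neuronal pentraxins, read 110.7 ± 13.99 and 86.6 ± 12.8 FPKM, a log2 difference of -0.36 (limma, adjusted p = 0.313).

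TGF-beta, which Thbs1 protein can release from its latent form, was examined through 17 genes of its ligands, latency and signalling. Of 16 tested genes 12 had a positive difference, beside 56.6% of all rows, the median was 0.091, and 0 passed. At an unadjusted p under 0.05 stood Tgfb1, a ligand gene, higher, and Smad4, the shared signal transducer, lower. That p was reached by 10.7% of all rows. Tgfb1 read 4.31 ± 0.826 and 5.50 ± 0.735 FPKM, with overlapping groups. Smad4, the 1 gene of the 16 whose groups did not overlap, read 7.42 ± 0.322 and 6.26 ± 0.482 FPKM, a log2 difference of -0.24 (limma, adjusted p = 0.369). Among all rows the groups lay apart in 4.02% with anti-miR-29a higher and in 2.29% with it lower. Smad7, the inhibitory member induced by the pathway, differed by 0.24 log2 units (limma, adjusted p = 0.506).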

How the data were processed

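RNA from 8 samples was measured, 4 per group. The deposited table holds FPKM per gene and library; per the submitters' processing notes the authors used CASAVA 1.8.2, Bowtie and Cuffnorm with mm10. Their gene annotation, filters and Cuffnorm scaling are not given in the labels or notes used. Libraries were made, per the labels' protocols, with a kit that does not mark strand.

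Values were taken as log2(FPKM + 0.1). Rows with a mean of at least 0.5 FPKM (13912) entered 1 limma fit (limma 3.58.1, R 4.3.3) of group alone, its variance trended on level. The two-sided p-values were Benjamini-Hochberg adjusted over all rows, with a threshold of 0.05. Alternatives covered pseudocount, filter, scaling, weights, the replicate block and leaving out each library. Single genes also had an exact two-sided permutation test over 70 relabellings, whose smallest p is 0.0286. The fit was tested on simulated data in 5 runs. It recovered 48.8% of shifts of 0.5 log2 units, 80.4% of shifts of 1 and 95.2% of shifts of 2. Many shifted genes were planted in each run, which eases the adjusted threshold, whereas the data gave 2 calls. Recovery in these data may therefore be lower than these rates. False calls averaged 8.4, and shifts of 0.5 were thus often missed. Seed matches and transcript lengths used GENCODE M21, which 99.3% of tested symbols matched, 418 of them through an older symbol. Relative depth came from ratios of values in rows with a mean under 0.2 FPKM.

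The members and gene lists were chosen with earlier results of these data known. Named by rule are the 10 members, 3 further relatives, up to 3 genes of smallest p in each pathway list and up to 2 in a marker list. Lrp8, Nptxr and Gad1 were named after their values were seen, because their groups do not overlap, and the markers Lum, Cd163, Ppbp and Gp9 because they are listed at 0 in some libraries. Gp1bb was named because it makes up most of the sum of its list.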

Additional observations from a re-analysis of the deposited data

Results flagged for a closer look

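Of 26 groups of 4 values checked, 3 held a library far from the other 3 of its group, where chance flags about 1 in 20 groups. Spock1 read 86.7 FPKM in scrambled replicate 2 against 91.3 to 92.1 in the other scrambled libraries. It read 84.5 FPKM in anti-miR-29a replicate 2 against 89.1 to 90.0 in the others of that group. Comp read 0.314 FPKM in anti-miR-29a replicate 2 against 0.108 to 0.132 FPKM, near the floor of the table.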

How the results depend on the processing

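No member passed under any of the 19 alternative fits, whose smallest adjusted p for a member was 0.151 (Smoc2, array weights). The replicate number as a block gave an adjusted p of 0.331 for Smoc2 and Spock2, left their log2 differences at 0.53 and -0.18, and called 0 genes in all. Same-numbered samples did not deviate together (correlations of -0.11 to 0.014), so the numbers are not taken to pair them. Over all rows 2 genes were called; 1 was with no filter or with a mean of at least 5 FPKM, 10 with robust empirical Bayes, and 0 with the length and GC trend removed or without genes lacking a transcript of 200 nt. Leaving out 1 library gave 1 to 3. Of the members only Spock2 met the 5 FPKM mean among those whose groups do not overlap, 1 in place of 2. The count of members with a seed match was 0 for bases 2 to 8, 1 for bases 2 to 7 followed by A, and 3 for bases 2 to 7.

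Among the members, directions turned only in genes with differences near 0. Thbs2 was at 0.070 with array weights, 0.041 with the trend removed, and -0.13 to 0.12 with 1 library left out. Thbs3 ranged from -0.050 to 0.29 and Sparcl1 from -0.046 to 0.040 with 1 library left out, and Sparcl1 was at 0.0046 with array weights. The cause was not tested. Across all rows the difference followed transcript length, with a median of 0.12 at 200 to 1000 nt and -0.060 from 6000 nt; with that trend removed Spock2 stood at -0.18, Smoc2 at 0.53 and Thbs4 at 0.92. Without counts, depth sets no interval for Thbs1 and Comp near the floor.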

Other observations

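Smoc2 and Thbs2 both lie on chromosome 17, with 261 kb between the 2 annotated genes (mm10), and are read from opposite strands. The groups did not overlap in Smoc2, whereas the log2 difference of Thbs2 was -0.0025.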
